A study of Mus musculus with 1152 samples.

Results

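Nupr1, Aldh1a1, Gpr183, Jam2, Neo1, Alcam, Plscr2, Sult1a1, Mt1 and Ehd3 are genes known from other studies to change in old hematopoietic stem cells (HSCs), and none is a marker of the platelet lineage. These 10 of the 41388 genes counted in the files were taken by symbol through their Ensembl identifiers, without use of their values, and all 10 passed the filter on low counts. They were followed in single long-term HSCs (LT-HSCs), 1 cell per well, from wild-type (WT) mice and from mice labelled JAK2 V617F homozygous (JAK2V617F), both aged 4, 12 and 18 months. Each of these 6 groups holds 2 library pools of 96 wells, here A for the lower and B for the higher pool number. The cells were sorted from whole bone marrow as ESLAM cells (CD45 positive, EPCR positive, CD150 positive and CD48 negative), and polyadenylated RNA was amplified by Smart-seq2, which reads along the transcript without molecular identifiers and without strand. JAK2V617F is a constitutively active form of the kinase downstream of the thrombopoietin receptor, and the labels give no other allele or treatment. The questions were whether the 10 genes were higher at 18 than at 4 months in both genotypes and library pools, and whether any such difference lay in all old cells or in the cells that express Hes1, Btg2 and Nr4a1.

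HSCs accumulate with age in mice while each of them gives a poorer and more myeloid output, and surveys of old HSCs repeatedly list genes of stress response, metabolism and cell contact among those that rise. Nupr1 encodes a small stress-induced chromatin protein, and Mt1 encodes a metallothionein that binds zinc and copper. Aldh1a1 makes retinoic acid from retinaldehyde, and Sult1a1 transfers sulfate to phenols. Plscr2 belongs to the phospholipid scramblases and Ehd3 to the ATPases that shape endocytic membranes. Gpr183 is a receptor for oxysterols that guides migrating lymphocytes, Alcam and Jam2 are adhesion molecules of the immunoglobulin superfamily, and Neo1 (neogenin) is a receptor for netrins and repulsive guidance molecules. Hes1 is a Notch target and transcriptional repressor, Btg2 an anti-proliferative p53 target, and Nr4a1 an immediate-early nuclear receptor.

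Cells with at least 2500 genes at 1 count or more were kept. They numbered 21 and 82 in WT and 4 and 58 in JAK2V617F at 4 months (pools A and B), 34 and 81 in WT and 49 and 78 in JAK2V617F at 18 months, and 96 and 50 in WT and 43 and 92 in JAK2V617F at 12 months. Their median counts on genes ranged from 173318 to 717980 per pool. JAK2V617F pool A at 4 months stood apart, since 4 of its 96 wells passed, and results of the 10 genes that move with it are given with and without it. ERCC spike-in RNA separated 3 sets of libraries: it was between 0.690 and 1.10% of counts at the median in the A pools of 4 and 18 months, between 7.18 and 7.74% in their B pools, and between 45.6 and 58.7% in the 12-month pools. Both ages 4 and 18 months are in each of the first 2 sets, whereas the age of 12 months and its library set cannot be told apart. The labels do not tie a pool to an animal, so p-values measure the spread between pools, which may be technical. HSC markers were present in every pool, with 3606 to 4417 summed counts per 1000000 counts on genes (CPM) over 11 genes at 4 months and 3725 to 5106 at 18 months, T cell markers were at 0 at both ages, and the other marker lists are given after the age results.

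Nupr1 (ENSMUSG00000030717) lies at chr7:126623249-126630861 on the minus strand of GRCm38, 42.0 kb from Sult1a1 (ENSMUSG00000030711, chr7:126672865-126676432, minus). Plscr2 (ENSMUSG00000032372, chr9:92275602-92297752, plus) and Neo1 (ENSMUSG00000032340, chr9:58874687-59036441, minus) share a chromosome, as do Jam2 (ENSMUSG00000053062, chr16:84774123-84825928, plus) and Alcam (ENSMUSG00000022636, chr16:52248996-52454074, minus). Aldh1a1 (ENSMUSG00000053279) is at chr19:20492715-20643465 (plus), Gpr183 (ENSMUSG00000051212) at chr14:121952551-121965195 (minus) and Ehd3 (ENSMUSG00000024065) at chr17:73804134-73832094 (plus). Counts of Gpr183 and of Sult1a1 are less certain, because exons of Ubac2 and of Sgf29 lie on the opposite strand of the same bases and the setting of the counter for such reads is not given in the sources used here. Of the 100-base windows of Sult1a1 transcripts, 1.75% also occur in Gm6939.

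Mt1 (ENSMUSG00000031765, chr8:94179082-94180327, plus) is 5.51 kb downstream of its sister gene Mt2 (chr8:94172664-94173568, plus), and the 2 metallothioneins are shown here because both were detected in more cells at 18 than at 4 months outside the pool of 4 cells. The 250 bases before their RefSeq start sites (GRCm38.p6, plus strand, chr8:94178839-94179088 and chr8:94172368-94172617) are printed with the core of the metal response element, TGCACNC or TGCGCNC on either strand, in capitals.
Mt1: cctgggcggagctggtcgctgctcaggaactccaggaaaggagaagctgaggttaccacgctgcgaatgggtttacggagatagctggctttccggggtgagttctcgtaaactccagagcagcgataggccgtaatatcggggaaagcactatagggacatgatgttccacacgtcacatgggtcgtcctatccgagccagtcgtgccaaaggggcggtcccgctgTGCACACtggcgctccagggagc
Mt2: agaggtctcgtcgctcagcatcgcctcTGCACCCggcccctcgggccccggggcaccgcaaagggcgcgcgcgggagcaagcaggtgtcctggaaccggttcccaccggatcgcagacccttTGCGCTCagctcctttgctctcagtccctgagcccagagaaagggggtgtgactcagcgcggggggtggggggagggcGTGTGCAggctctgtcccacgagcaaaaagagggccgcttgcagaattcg
With 50 bases after the start included, Mt1 held 3 matches and Mt2 held 4, and no other gene of the 8 among the 10 that the RefSeq promoter table lists held one. The core occurred in 25.7% of the 32851 promoters of that table. The AP-1 letters TGANTCA, present in 7.81% of promoters, occurred in those of Aldh1a1 and Mt2, the E-box CACGTG (7.15%) in that of Nupr1, and the monomer site of Nr4a1, AAAGGTCA (1.51%), in none of the 8. These are matches of letters in a window and carry no statement on binding.

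Of the stress genes, Nupr1 was detected, with at least 1 count, in 23.8 and 34.1% of WT cells at 4 months (pools A and B) and in 67.6 and 77.8% at 18 months. In JAK2V617F it was detected in 75% (3 of 4 cells, 95% Wilson interval 30.1 to 95.4%) and 48.3% of cells at 4 months and in 79.6 and 79.5% at 18 months. Both old pools of either genotype thus lay above both young pools of that genotype, by 43.8 and 43.6 percentage points within the library sets in WT and by 4.59 and 31.2 in JAK2V617F. Old WT pool A nevertheless lay below the JAK2V617F pool of 4 cells, so that the 4 old and 4 young pools did not separate (exact permutation test, two-sided, p = 0.0571). Without that pool the young shares ran from 23.8 to 48.3% and the old ones from 67.6 to 79.6%, with the smallest p that 3 against 4 pools allow (exact permutation, 0.0571).

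Mt1 was counted in 23.8 and 63.4% of WT cells at 4 months and in 85.3 and 96.3% at 18 months. In JAK2V617F the shares were 100% (4 of 4) and 51.7% at 4 months against 91.8 and 92.3% at 18 months. Among cells with a count, its median level was 13 CPM in WT pool B and 12.5 CPM in JAK2V617F pool B at 4 months, against 195 and 32.8 CPM in the B pools of 18 months. As for Nupr1, the old pools did not overlap with the young ones once the pool of 4 cells was left out, and overlapped with it (exact permutation p = 0.143 over 8 pools). Cells with neither Nupr1 nor Mt1 made up 57.1 and 25.6% of WT cells and 32.8% of JAK2V617F cells (pool B) at 4 months, and between 0 and 5.88% at 18 months.

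In the pool of 4 cells most counts of Nupr1 and of Mt1 came from 1 cell for each gene, though Mt1 was detected in all 4 cells. Nupr1 reached 2623 CPM of its summed counts, with 93.3% of them in 1 cell, against 133, 157 and 223 CPM in the other young pools and 375, 565, 557 and 431 CPM in the old WT and JAK2V617F pools. Mt1 reached 888 CPM there, with 76.8% in 1 cell, against 20.2, 75.7 and 76.8 CPM in the other young pools and 215, 244, 298 and 153 CPM in the old ones. Fold changes of both genes in JAK2V617F turn on that pool.

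**Figure D1:**
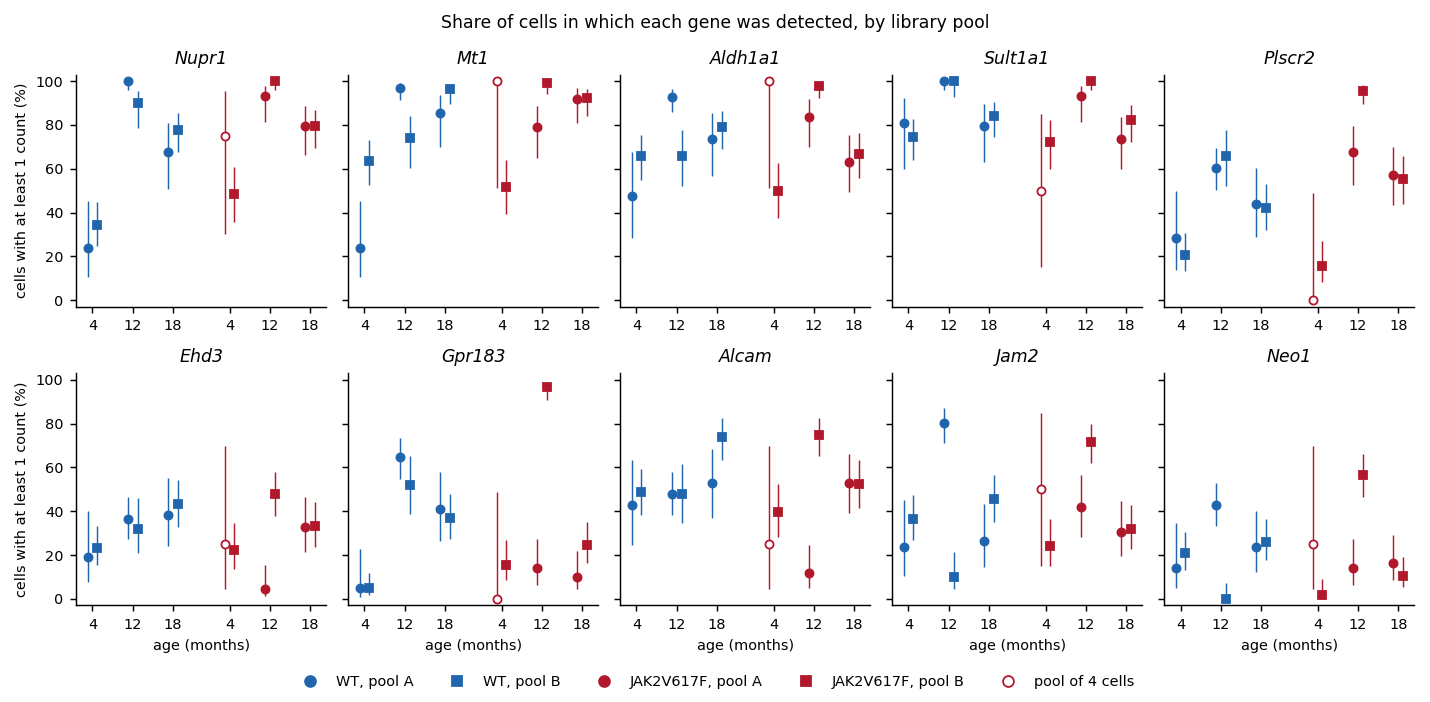
Percent of passing cells with at least 1 count of each of the 10 genes (y axis) in the 12 library pools, by genotype and age in months (x axis). Circles are pools A, squares pools B, the open circle is the pool of 4 cells, and bars are 95% Wilson intervals. Nupr1, Mt1, Plscr2, Ehd3 and Alcam have all 4 pools of 18 months above the other 3 pools of 4 months, as do 4.88% of all genes.

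Of the metabolic enzymes, Aldh1a1 was detected in 47.6 and 65.9% of young and 73.5 and 79.0% of old WT cells. Its shares in JAK2V617F were 100% (4 of 4) and 50% in the young pools against 63.3 and 66.7% in the old ones, with opposite directions in pools A and B. Sult1a1 was detected in 81.0 and 74.4% of young and 79.4 and 84.0% of old WT cells, and in 50% (2 of 4) and 72.4% of young and 73.5 and 82.1% of old JAK2V617F cells. The young and old pools of both enzymes overlapped (exact permutation p = 0.771 for Aldh1a1 and 0.171 for Sult1a1).

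The membrane genes Plscr2 and Ehd3 separated by age over all 8 pools. Plscr2 was detected in 28.6 and 20.7% of WT cells at 4 months and 44.1 and 42.0% at 18 months, and in JAK2V617F in 0 of 4 cells, which allows a share of up to 75%, and 15.5% at 4 months against 57.1 and 55.1% at 18 months. All 4 old pools lay above all 4 young ones, with means of 49.6 ± 7.65% and 16.2 ± 12.1% (SD, n = 4 pools; exact permutation p = 0.0286, the smallest possible). Ehd3 was detected in 19.0 and 23.2% of WT and 25% (1 of 4) and 22.4% of JAK2V617F cells at 4 months, and in 38.2, 43.2, 32.7 and 33.3% of the old WT and JAK2V617F pools. Its old pools also lay above all young ones, at 36.9 ± 4.91% against 22.4 ± 2.49% (SD, n = 4, exact permutation p = 0.0286).

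Among the receptors and adhesion molecules, Gpr183 differed between the genotypes in its values. It was found in 4.76 and 4.88% of young and 41.2 and 37.0% of old WT cells, with 4.60 and 9.45 CPM of summed counts against 113 and 90.9 CPM. In JAK2V617F it was found in 0 of 4 cells (a share of up to 75% by the same rule) and 15.5% at 4 months and in 10.2 and 24.4% at 18 months, and there the old pool A lay below the young pool B. Over both genotypes the shares overlapped (exact permutation p = 0.0571), and the difference between the genotypes' age effects did not pass the test given below.

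Alcam was detected in 42.9 and 48.8% of young and 52.9 and 74.1% of old WT cells, and in 25% (1 of 4) and 39.7% of young and 53.1 and 52.6% of old JAK2V617F cells. The old pools lay above all young ones, at 58.2 ± 10.6% against 39.1 ± 10.1% (SD, n = 4, exact permutation p = 0.0286). Jam2 was detected in 23.8, 36.6, 50 and 24.1% of the young pools (WT A and B, then JAK2V617F A and B) and in 26.5, 45.7, 30.6 and 32.1% of the old ones, with means that were within 0.0701 percentage points of each other. Neo1 was detected in 14.3, 20.7, 25 and 1.72% of the young pools and 23.5, 25.9, 16.3 and 10.3% of the old ones. The pools of both genes overlapped (exact permutation p = 1 and 0.6).

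In all, the shares of Plscr2, Ehd3 and Alcam, 3 of the 10 genes, did not overlap between the ages, and the same separation held for 3.34% of the 14930 genes tested. The pool means of log2(CPM + 1) separated the same 3 genes, against 3.15% of all genes. Without the pool of 4 cells, 5 of the 10 genes separated in their shares (Nupr1 and Mt1 besides), against 4.88% of all genes. The p-values of these 20 tests, 2 for each gene, are not adjusted. Those of 0.0286 (exact permutation) count the pool of 4 cells as a full pool. Without it no gene could fall under 0.0571 in that test. Plscr2, Ehd3 and Alcam also separated when cells were thinned to 50000 counts, with cells under that depth left out. This kept 80 of 82 cells in WT pool B of 4 months and 77 of 78 in JAK2V617F pool B of 18 months. All cells were kept in the other pools of these ages. Including cells down to 1300 genes kept 67 wells in place of 4 in the pool of 4 cells. The shares of Plscr2 and Ehd3 then separated, and those of Alcam, Nupr1 and Mt1 did not. The share of all genes that separated was not computed after thinning or with cells down to 1300 genes.

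The number of the 10 genes detected in a cell gives the same picture cell by cell. Its mean was 3.10 and 3.93 in young and 5.32 and 6.05 in old WT pools, and 4.5 (4 cells) and 3.41 in young and 5.08 and 5.28 in old JAK2V617F pools. Median counts per cell were 317440 and 347660 in young and 396698 and 336575 in old WT pools, and 419152 and 173318 in young and 400805 and 284230 in old JAK2V617F pools, so old cells were deeper in WT pool A and in JAK2V617F pool B. After thinning to 50000 counts the means were 2.57 and 3.14 against 4.85 and 5.16 in WT and 4.00 and 2.86 against 4.39 and 4.26 in JAK2V617F. Between 9.52 and 13.4% of cells had 6 or more of the genes in the young pools other than that of 4 cells, against 42.3 to 63.0% in the old ones.

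**Figure D2:**
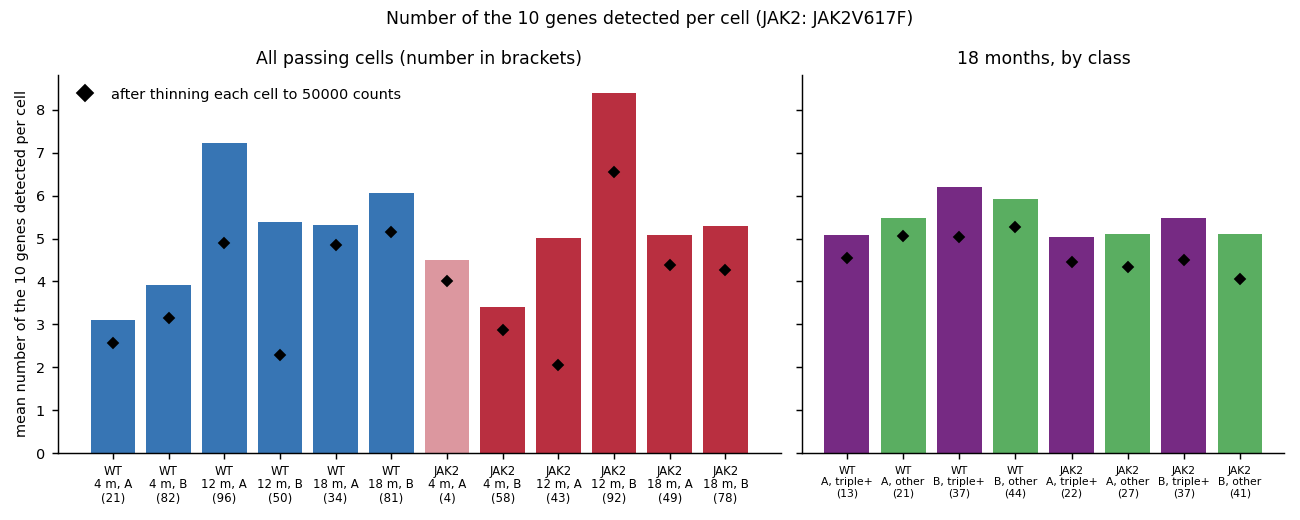
Mean number of the 10 genes with at least 1 count per cell (y axis) in each pool (left; cell number in brackets) and, for 18 months, in triple-positive and other cells (right), with diamonds after thinning to 50000 counts. Old pools lie between 5.08 and 6.05 and young pools, apart from that of 4 cells, between 3.10 and 3.93; the 2 classes of old cells lie side by side in every pool.

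Counts summed over the cells of a pool were then compared with edgeR's quasi-likelihood test, with p adjusted over all 14930 genes by Benjamini-Hochberg. No gene of the genome, and so none of the 10, passed an adjusted p of 0.05 for age in WT, in JAK2V617F or averaged over both (0% called in each), while 109 genes were higher and 51 lower at an unadjusted p under 0.05 in WT, 101 and 175 in JAK2V617F, and 385 and 159 in the average. DESeq2 called 237 genes higher (1.06% of the 22271 tested, of which 14499 had an adjusted p) and 105 lower in the average, none of them among the 10. In WT all 10 log2 fold changes were above 0, with a median of 0.99 against 0 over all genes, from 0.36 ± 0.59 (SE) for Sult1a1 to 3.78 ± 2.09 for Gpr183. In JAK2V617F 6 of 10 were above 0, with a median of 0.48 against 0.55 over all genes, and 9 of 10 without the pool of 4 cells, with 0.97 against 0.15.

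Of the stress genes, Nupr1 was at 1.65 ± 0.86 (log2 ± SE) in WT and at -1.88 ± 0.86 in JAK2V617F, where leaving out the pool of 4 cells turned it to 1.06 ± 0.69. Mt1 was at 2.17 ± 1.05 in WT and at -1.47 ± 1.02 in JAK2V617F, and at 1.45 ± 0.98 without that pool. With cells down to 1300 genes included, where that pool held 67 wells, the JAK2V617F values were 0.0056 for Nupr1 and -0.41 for Mt1. The WT values were then 1.44 and 2.08. Plscr2 was positive throughout, at 1.84 ± 1.53 in WT, 3.34 ± 1.62 in JAK2V617F and 2.59 ± 1.11 in the average (p = 0.0349, adjusted p = 1, edgeR), which is 2.30 above the shift of 0.29 of the median gene.

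Without the pool of 4 cells the averaged log2 fold changes were 1.37 ± 0.45 for Nupr1 (unadjusted p = 0.00665), 1.83 ± 0.64 for Mt1 (p = 0.0105) and 2.14 ± 0.83 for Plscr2 (p = 0.0187), each with an adjusted p of 1 in edgeR over 17078 genes. All 10 were then above both 0 and the median gene (0.17), with a median of 1.11. With it, 9 were above 0, 7 above the median gene, and their median was 0.71. When pool B was left out instead, 4 cells stood for young JAK2V617F, and their spread was taken from the other groups. Nupr1 was then called lower in JAK2V617F (-2.77 ± 0.57, adjusted p = 0.0201, edgeR) and Plscr2 higher in the average (adjusted p = 0.0290, edgeR). In that fit 2.8% of 16927 genes were called in JAK2V617F and 1.31% in the average, and the median log2 fold change of all genes was 5.4 and 2.86.

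**Figure D3:**
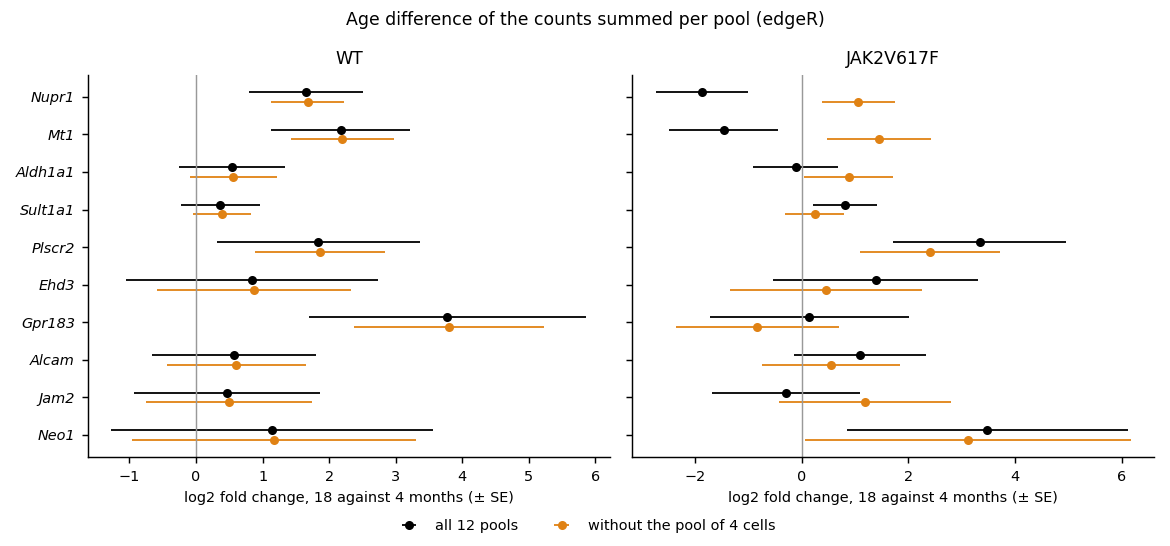
Log2 fold change of summed counts at 18 against 4 months for each gene (edgeR, bars are SE), in WT and JAK2V617F, with all 12 pools (black) and without the pool of 4 cells (orange). The points of Nupr1 and Mt1 in JAK2V617F move from -1.88 and -1.47 to 1.06 and 1.45, and the WT points hardly move.

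The age effects of the genotypes were compared in the same fit. Differences of JAK2V617F minus WT were -3.53 ± 1.21 for Nupr1 (p = 0.0113) and -3.64 ± 1.46 for Mt1 (p = 0.0257), and those of the other 8 genes had larger p-values. When the pool of 4 cells was left out they were -0.61 ± 0.84 for Nupr1 and -0.75 ± 1.17 for Mt1 (adjusted p = 1 for both, edgeR), so the size of both differences depends on that pool. With cells down to 1300 genes included, the JAK2V617F age effects of both genes still lay below those in WT, as given above. With all pools none of 14930 genes passed the adjusted threshold (0%; adjusted p = 1 for all 10, edgeR; 235 genes were positive and 168 negative at an unadjusted p under 0.05). For Gpr183 the difference was -3.64 ± 2.72, with a 95% interval from -9.47 to 2.19. Leaving out the pool of 4 cells gave -4.63 ± 2.01 (interval -8.85 to -0.41, unadjusted p = 0.0331, adjusted p = 1, edgeR), and none of 17078 genes passed (45 positive and 92 negative at an unadjusted p under 0.05), so a difference between the genotypes in Gpr183 is not shown after adjustment. Between genotypes at one age no gene passed at 4, 12 or 18 months (0% each; 203, 376 and 84 genes higher and 88, 311 and 59 lower at an unadjusted p under 0.05). At 18 months the 10 differed between JAK2V617F and WT by -1.35 to 0.55 in log2, and at 4 months Nupr1 and Mt1 were both 3.66 higher in JAK2V617F (SE 0.93 and 1.11, adjusted p = 1, edgeR), a value that includes the pool of 4 cells. Without it they were 0.74 ± 0.64 and 0.76 ± 0.89 higher (adjusted p = 1, edgeR).

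At 18 months, 109 passing cells had at least 1 count of each of Hes1, Btg2 and Nr4a1 (triple-positive) and 133 did not: the class held 13 of 34 and 37 of 81 in WT and 22 of 49 and 37 of 78 in JAK2V617F. At 4 months 1, 4, 0 and 1 cells did, and at 12 months none did. Taken singly, Hes1 was detected in 0 to 23.8% of cells per pool at 4 months and 47.1 to 62.8% at 18 months, Btg2 in 15.5 to 25% and 57.7 to 69.1%, and Nr4a1 in 42.9 to 59.8% and 57.1 to 81.5%. Of the 18-month cells outside the class, 6 and 9 in WT and 12 and 7 in JAK2V617F (pools A and B) had none of the 3 genes. The others had 1 or 2. In those with none, the mean number of the 10 genes was 5.33 and 6.0 in WT and 5.08 and 5.29 in JAK2V617F. Plscr2 was detected in 16.7, 22.2, 58.3 and 28.6% of them. The remaining old cells, with 0 to 2 of the 3 genes, were compared with the remaining young cells to see whether the age difference of the 10 genes was present outside this class. Nupr1 was detected in 76.2, 81.8, 77.8 and 73.2% of the old cells without the class (WT A and B, JAK2V617F A and B), against 25.0 to 47.4% in the young pools other than that of 4 cells. Mt1 was detected in 85.7, 95.5, 92.6 and 92.7% of them, against 25.0 to 65.4%.

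Plscr2 (31.8 to 63.4% against 0 to 30.0%), Ehd3 (36.6 to 44.4% against 20 to 25%) and Alcam (53.7 to 70.5% against 25.0 to 48.7%) did not overlap between all 8 pools without the class (exact permutation p = 0.0286 each), as in 2.2% of the 14252 genes tested. Without the pool of 4 cells Nupr1 and Mt1 separated too, as did 3.33% of genes. In the summed counts no gene passed (0% of 14252; 239 higher and 199 lower at an unadjusted p under 0.05; DESeq2 called 182 and 138), with 9 of the 10 above 0 and a median of 0.79 against 0.22 over all genes. Log2 fold changes without the pool of 4 cells were 1.26 ± 0.50 for Nupr1, 1.89 ± 0.70 for Mt1 and 2.01 ± 0.97 for Plscr2 (adjusted p = 1, edgeR), within 1 SE of those over all cells. Neo1 was at 0.48 ± 1.78 outside the class against 2.14 ± 1.85 over all cells, and Gpr183 at 0.82 ± 1.21 against 1.48 ± 1.08. These fits share cells, and the change between them was not tested.

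The triple-positive cells were also set against the other cells of the same pool. Mt1 was detected in 84.6, 97.3, 90.9 and 91.9% of triple-positive cells and in 85.7, 95.5, 92.6 and 92.7% of the others, a difference of -0.43 ± 1.56 points (SD over 4 pools). Nupr1 was detected in 53.8, 73.0, 81.8 and 86.5% against 76.2, 81.8, 77.8 and 73.2%, lower in both WT pools and higher in both JAK2V617F pools. For Plscr2 the shares were 46.2, 54.1, 59.1 and 45.9% against 42.9, 31.8, 55.6 and 63.4%. Apart from Neo1, the mean differences of the 10 genes lay between -6.36 and 7.64 points, with both signs among the 4 pools for each gene. The number of the 10 genes per cell was 5.08 against 5.48 and 6.19 against 5.93 in the WT pools, and 5.05 against 5.11 and 5.49 against 5.10 in the JAK2V617F pools.

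Neo1 was the exception under this definition of the class. It was detected in 38.5, 29.7, 31.8 and 13.5% of triple-positive cells (5 of 13, 11 of 37, 7 of 22 and 5 of 37) and in 14.3, 22.7, 3.70 and 7.32% of the others (3 of 21, 10 of 44, 1 of 27 and 3 of 41). It was higher in 4 of 4 pools, by 16.4 ± 11.4 points (SD; exact sign-flip permutation p = 0.125, the smallest that 4 pools allow), as were 6.58% of 13244 genes, while 5.94% were lower in all 4. In the summed counts its log2 fold change was 2.32 ± 0.73 (p = 0.0140, adjusted p = 1, edgeR, which called 3 genes or 0.0227%). DESeq2 called it (adjusted p = 0.0218) among 231 genes higher, 1.3% of the 17754 tested, of which 12246 had an adjusted p. With 2 of the 3 class genes required, Neo1 was again higher in 4 of 4 pools (9.29 ± 9.07 points), as it was after thinning (14.1 ± 12.6 points). When the class required 10 CPM of each of the 3 genes, Neo1 was higher in 3 of 4 pools (13.1 ± 18.9 points, and 1.78 ± 1.55 in log2). Aldh1a1 was then higher in 4 of 4 pools (6.87 ± 4.03 points) and Jam2 in 0 of 4 (-6.33 ± 5.93 points). The shares of all genes under these alternatives were not computed. With the class defined at 1 count, the edgeR intervals of the class difference included 0 for the 9 genes other than Neo1. The widest, for Gpr183, ran from -0.71 to 2.97.

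**Figure D4:**
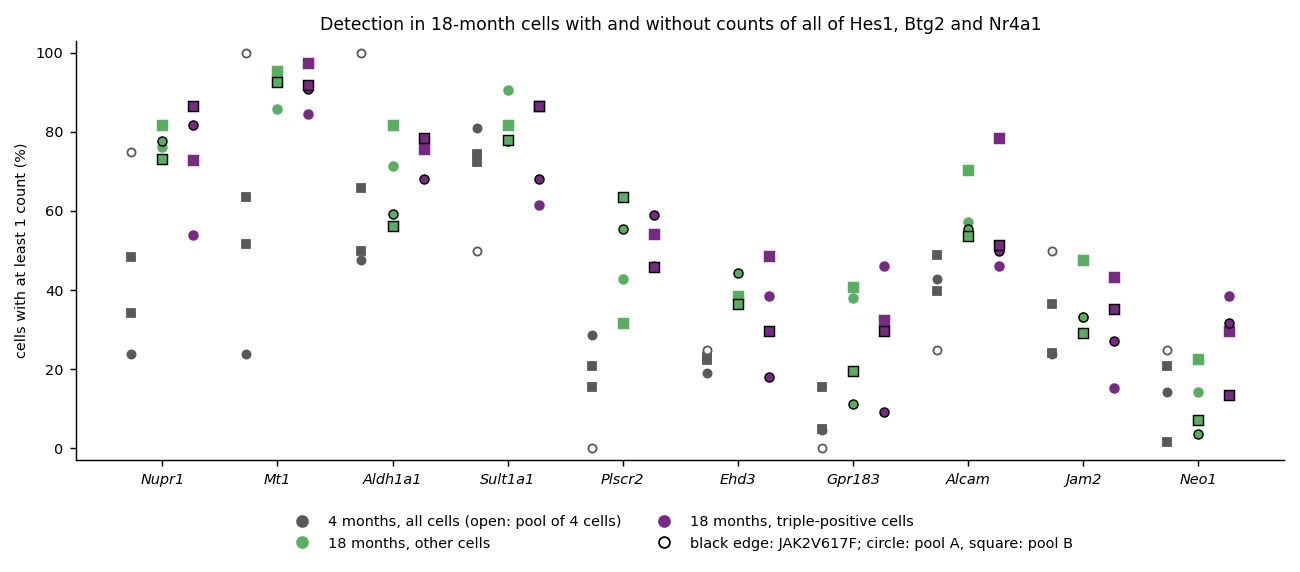
Percent of 18-month cells with at least 1 count of each gene (y axis), in triple-positive (purple) and other cells (green) of each pool, beside all cells of each 4-month pool (grey). Circles are pools A, squares pools B, and a black edge marks JAK2V617F. Neo1 is higher in triple-positive cells in 4 of 4 pools, as are 6.58% of all genes tested, and the difference of Mt1 averages -0.43 points.

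Within a pool, the 10 genes did not go together from cell to cell. The median over pools of Spearman's rho between 2 of them (log2(CPM + 1), up to 11 pools, cells sharing library and depth) ran from -0.06 to 0.17 over the 45 pairs, and between one of them and Hes1, Btg2 or Nr4a1 from -0.10 to 0.15. Between the 3 class genes themselves it was 0.56 to 0.67. No pair of the 10 genes thus had a median rho above 0.17.

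At 12 months, most of the 10 genes were detected in more cells than at either other age in some pools. Median genes detected per cell were 5045 and 3734 in WT and 3166 and 5058 in JAK2V617F (pools A and B), against 2516.5 to 3329 at 4 and 18 months. Cells deep enough for thinning were 61 of 96 and 45 of 50 in WT and 43 of 43 and 63 of 92 in JAK2V617F. In these the mean number of the 10 genes per cell after thinning was 4.89 and 2.29 in WT and 2.05 and 6.56 in JAK2V617F. It was 2.57 to 4.0 at 4 months and 4.26 to 5.16 at 18 months. The share of all genes detected in more cells at 12 months was not computed. Nupr1 had a count in 100 and 90% of WT and 93.0 and 100% of JAK2V617F cells, and Plscr2 in 60.4, 66, 67.4 and 95.7%. In WT pool B and JAK2V617F pool A, 48 and 44.2% of cells had only 1 to 4 counts of Nupr1, and the median level of its detected cells was 8.95 and 7.14 CPM, against 393 and 616 CPM in the other 2 pools. Counted only at 50 CPM and 5 counts or more, Nupr1 was in 78.1 and 28.0% of WT and 25.6 and 87.0% of JAK2V617F cells, so the 2 pools of a genotype lay far apart. Hba-a1, an alpha-globin gene of red cells with a near-identical copy, was at 743 CPM in WT pool B and at 3497 and 2819 CPM in the JAK2V617F pools of 12 months, against 6.61 CPM in WT pool A, 6.0 to 65.7 CPM at 4 months and 9.56 to 89.4 CPM at 18 months. Its part in the 12-month values was not tested.

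By that stricter measure the young and old pools read as follows. Nupr1 was at 19.0, 23.2 and 34.5% in the young pools other than that of 4 cells and 61.5 to 75.5% in the old ones, and Mt1 at 14.3, 19.5 and 20.7% against 39.7 to 63.3%. Gpr183 was at 4.76, 3.66, 0 and 8.62% against 23.5, 25.9, 10.2 and 16.7%, so that its 4 old pools lay above its 4 young ones, which they did not at 1 count. Gpr183, Plscr2 and Ehd3 separated by this measure, against 2.32% of all genes, whereas Alcam no longer did (33.3, 40.2, 25.0 and 32.8% against 35.3, 61.7, 42.9 and 37.2%). With the pool of 4 cells left out Nupr1 and Mt1 joined them, 5 of the 10 genes, against 3.19% of all genes. Gpr183 at 12 months was at 15.6, 6, 2.33 and 32.6%. In the summed counts against 4 months, edgeR called 2 genes (0.0134%) in WT and 4 (0.0268%) in JAK2V617F, all lower and none of the 10. Mt1 in WT (2.38 ± 1.05, adjusted p = 0.742, edgeR) and Plscr2 in JAK2V617F (4.51 ± 1.71, adjusted p = 0.673, edgeR) came nearest, and the JAK2V617F values include the pool of 4 cells. Hes1, Btg2 and Nr4a1 had a count in 0 to 15.6% of cells of the 12-month pools.

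**Figure D5:**
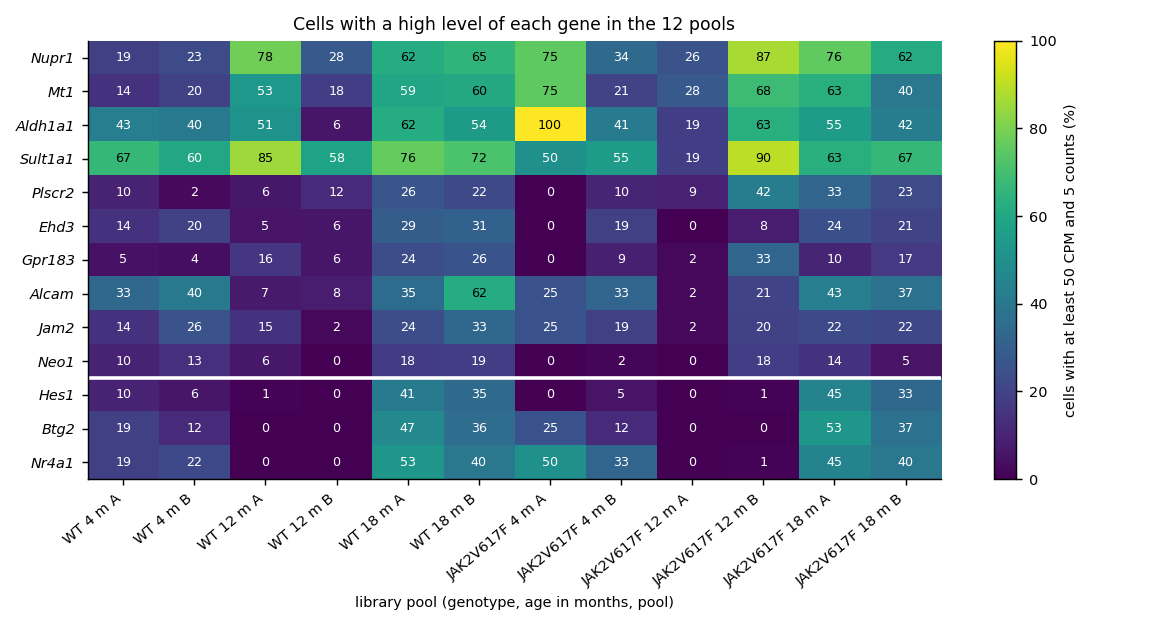
Colour and number give the percent of cells with at least 50 CPM and 5 counts of each of the 10 genes and, under the white line, Hes1, Btg2 and Nr4a1 (rows), in each of the 12 pools (columns). At 12 months the pools of one genotype lie far apart (Nupr1: 78.1 and 28.0% in WT), and at 18 months Gpr183 lies above 4 months in every pool (10.2 to 25.9% against 0 to 8.62%), as in 2.32% of all genes, while Alcam overlaps.

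Relatives and partners of the 10 genes were read in the same fits. Of 25 such genes 18 were tested, none passed in the averaged age effect, 12 were above 0, and the median was 0.54 in log2 against 0.29 for all genes. In the fit without the pool of 4 cells 11 of 19 were above 0 with a median of 0.22 against 0.17, and in WT 8 of 18 with a median of -0.07 against 0. Mt2, the second metallothionein, was detected in 4.76 and 2.44% of WT and 50% (2 of 4) and 5.17% of JAK2V617F cells at 4 months and in 26.5, 25.9, 46.9 and 21.8% at 18 months (log2 fold change 2.25 ± 1.22, and 2.88 ± 1.44 without the pool of 4 cells, adjusted p = 1, edgeR). Of its transcript windows 22.4% are shared with the antisense gene Gm45774. Aldh1a3, which also makes retinoic acid, was found in 0, 2.44, 0 and 1.72% of cells at 4 months and 8.82, 7.41, 10.2 and 6.41% at 18 months, at 4.28 CPM or less (4.5 ± 2.16, and 4.38 ± 3.79 without that pool, adjusted p = 1, edgeR). Plscr1, the best known scramblase of its family, was found in 14.3, 32.9, 75 and 50% at 4 months and 35.3, 60.5, 51.0 and 55.1% at 18 months (0.81 ± 0.64, and 1.12 ± 0.66 without that pool). Plscr3 (0.40 ± 1.19) and Plscr4 (-0.49 ± 1.16), Ehd1 (-0.71 ± 2.11) and Ehd4 (-0.62 ± 0.83), and Jam3 (-0.87 ± 1.92), the binding partner of Jam2, did not pass either, and without that pool Plscr3 turned to -0.063 ± 0.80 and Plscr4 to 0.20 ± 1.22.

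Ch25h, whose product starts the synthesis of the Gpr183 ligand, had no count in any of the 688 passing cells, which allows a share of up to 0.436%, and Cyp7b1, which completes it, was at -0.27 ± 2.09. Rgmb, a Neo1 ligand, was detected in 0 to 6.41% of cells per pool, Ntn1 in 0 to 5.43%, and Cd6, the receptor that binds Alcam on T cells, in 0 to 2% of them.

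Of 21 further genes known to rise in old HSCs, 16 were above 0 in the averaged age effect, with a median of 0.50. Without the pool of 4 cells 18 were, with 0.92. Above the median gene (0.29 and 0.17) lay 12 and 16 of them. In WT 17 were above 0, with a median of 0.90 against 0 over all genes. In JAK2V617F 10 were, with a median of -0.15 against 0.55. Without the pool of 4 cells 15 were in JAK2V617F, with 0.51 against 0.15. None passed, and the smallest p belonged to Gstm2 (1.91 ± 1.07) and Enpp5 (1.58 ± 0.98; adjusted p = 1 for both, edgeR). The 12 platelet and megakaryocyte genes had a median of 0.12 and 6 above 0 (smallest p for Gp1ba and Treml1), and the 6 tested of 10 lymphoid genes a median of -0.02 (Ighm and Satb1). The 11 HSC markers had a median of 0.29, equal to that of all genes (Ptprc and Mecom). The medians without the pool of 4 cells were 0.11 for the platelet genes, 0.28 for 8 lymphoid genes and 0.10 for the HSC markers, against 0.17 over all genes.

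Markers of other cell types were low and were not called at either age. Summed over each list, granulocyte and monocyte markers (6 genes, Elane and S100a9) were at 26.0 to 102 CPM at 4 months and 9.78 to 38.1 at 18 months, and B cell markers (4 genes, Cd79b and Ms4a1) at 0 to 95.7 and 29.9 to 50. Endothelial markers (4 genes, Emcn and Kdr) were at 83.9 to 427 and 49.8 to 125 CPM, and stromal markers (4 genes, Lepr) at 0.170 to 178 and 0.0698 to 3.35. The highest young value of the granulocyte, endothelial and stromal lists was that of the pool of 4 cells, and without it they were at 26.0 to 36.9, 83.9 to 139.5 and 0.170 to 36.9 CPM at 4 months. The highest young pool then lay above the highest old one in the B cell, endothelial and stromal lists and below it in the granulocyte list, and their part in the age differences was not tested.

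Plscr2, the gene with the largest averaged fold change of the 10 over all 12 pools, though level with Neo1 without the pool of 4 cells (2.14 each) and below Gpr183 at 1300 genes (1.62 against 1.84), was most like Cript, Avpi1 and 4632427E13Rik over the 12 pools (Pearson r of log2 CPM 0.952, 0.946 and 0.945). Without the pool of 4 cells, in which Plscr2, Avpi1 and 4632427E13Rik had no count, r was 0.855, 0.831 and 0.830. These are descriptions over pools that share depth, age and library set.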

How the data were processed

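Reads were mapped by the authors to the Ensembl 77 mouse genome (GRCm38) with the ERCC spike-ins. The submitters' processing notes name TopHat2 2.0.13, Bowtie2 2.2.3 and HTSeq, whose mode and strand setting are not given in the sources used here. The authors deposited raw counts per gene for each of 1152 wells, without normalization. Here wells with at least 2500 detected genes were kept, CPM is the count per 1000000 counts on genes of a cell or pool, and counts were summed per pool. Symbols and coordinates came from GENCODE M21 (GRCm38).

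The summed counts of 12 pools were fitted with edgeR 4.0.16 (TMM, filterByExpr, quasi-likelihood test, Benjamini-Hochberg adjustment over all genes tested) in R 4.3.3. Triple-positive and other cells of 18 months were compared with the pool as a block. Pool shares and means of log2(CPM + 1) were compared with exact permutation tests in scipy 1.17.1, and intervals and limits of shares cover counting error only. The edgeR and DESeq2 steps were tested on simulated data with the spread of these pools, where edgeR recovered few of the smaller changes and DESeq2 also called many unchanged genes. Alternatives were DESeq2 1.42.0, limma 3.58.1 (trend), RLE factors, no filter, all wells, 1300 genes, 5 counts, thinning to 50000 counts, a pseudocount of 10, other definitions of the class and leaving out each pool. Limma and the block without the pool of 4 cells, the measure at 50 CPM and 5 counts, the class at 10 CPM for the shares, and the genotype comparisons without that pool were added after the data were seen.

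The 10 genes and all other lists were chosen with earlier results of these data known. Named besides the 10 were Hes1, Btg2 and Nr4a1, relatives and partners of the 10, the 2 genes of smallest p of each other list where none passed, and the 3 genes most correlated with the member of largest fold change. The summed level of 1 marker list is not reported here, and Hba-a1 was chosen after its values were seen.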

Additional observations from a re-analysis of the deposited data

How the results depend on the processing

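For age, DESeq2 called 254 genes in WT, 341 in JAK2V617F, 342 in the average and 320 outside the triple-positive class, where edgeR called 0, and with no filter on low counts edgeR called 3, 6, 12 and 11. In the average, all wells gave 1, the library set as a replicate block 1, limma's trend test 4, and limma without the pool of 4 cells 2. For triple-positive against other cells, edgeR called 3 genes, DESeq2 437, no filter 7, a cut-off of 1300 genes 18, and 10 CPM of each class gene 16. Leaving out each pool in turn gave 1 to 3 genes in WT, 0 to 474 in JAK2V617F, 3 to 222 in the average, 1 to 233 outside the class and 0 to 1 for the class. Between 3 and 5 of the 10 genes then separated by age in the share of cells with a count. Over all genes this was computed only without the pool of 4 cells, where 4.88% separated, against 3.34% with all pools. The counts of 474, 222 and 233 came from leaving out JAK2V617F pool B of 4 months, that of 3 in WT from leaving out WT pool A of 18 months, and that of 5 of the 10 from leaving out the pool of 4 cells. With that pool left out, 1 gene was called between genotypes at 4 months and 0 in the difference of the age effects.

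The differences between library sets A and B correlated at 0.0210 to 0.0473 between groups, too little to pair the pools by set, although the ERCC share separates the sets. With the set as a replicate block the averaged log2 fold change of Nupr1 turned from -0.11 to 0.00788, and that of Aldh1a1 outside the class from 0.10 to -0.0295. With the block and without the pool of 4 cells, values in JAK2V617F turned to 1.22 for Nupr1, 0.66 for Aldh1a1, -0.57 for Gpr183, 1.48 for Jam2 and 1.77 for Mt1, and Nupr1 in the average to 1.44.

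Other directions turned as follows, and the cause was not tested. At 1300 genes the JAK2V617F values were 0.0056 for Nupr1, 1.23 for Jam2, -1.05 for Neo1 and -0.17 for Ehd3, Nupr1 in the average was 0.72, values outside the class were 0.64 for Nupr1, -0.12 for Aldh1a1 and -1.06 for Neo1, and Alcam in the class comparison was 0.0626. With all wells the JAK2V617F values were 0.18 for Nupr1, 0.72 for Jam2, -0.77 for Neo1 and -0.0649 for Sult1a1, Nupr1 in the average was 0.81, and values outside the class were 0.73 for Nupr1, -0.0581 for Aldh1a1 and -0.91 for Neo1. DESeq2 gave Jam2 -0.025 in the average and -0.13 outside the class and Aldh1a1 -0.00169 there, and RLE factors gave -0.0273, -0.14 and -0.00292. Limma gave Nupr1 0.95 and Mt1 0.15 in JAK2V617F, Nupr1 2.43 in the average and 2.38 outside the class, and Aldh1a1 -0.0288 there. Without the pool of 4 cells limma gave 2.98 for Nupr1, 0.95 for Aldh1a1, 0.45 for Jam2 and 3.13 for Mt1 in JAK2V617F, and 3.45 for Nupr1 in the average. In the class comparison, 10 CPM of each gene gave Nupr1 -0.21 and Mt1 0.0782, and 2 of the 3 genes gave Nupr1 -0.15. The share of Aldh1a1 differed by -2.75 points at 50 CPM and 5 counts, and that of Jam2 by -0.68 after thinning.

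Leaving out each pool in turn moved log2 fold changes across 0 for Jam2 in WT (-0.0939 to 1.40), and in JAK2V617F for Nupr1 (-2.77 to 1.06), Aldh1a1 (-1.19 to 0.88), Gpr183 (-1.60 to 12.7), Jam2 (-0.997 to 1.19) and Mt1 (-2.36 to 1.45). In the average it did so for Nupr1 (-0.56 to 1.37), Aldh1a1 (-0.33 to 0.72), Jam2 (-0.26 to 0.84) and Mt1 (-0.0933 to 1.83), and outside the class for Nupr1 (-0.59 to 1.26), Aldh1a1 (-1.18 to 0.57) and Jam2 (-0.32 to 0.71). In the class comparison Nupr1 ran from -0.0181 to 0.47 and Mt1 from -0.22 to 0.13. Shares ran from -1.33 to 16.1 points for Aldh1a1, -3.92 to 5.53 for Jam2 and -0.996 to 6.76 for Neo1, and means of log2(CPM + 1) from -0.0544 to 1.32 for Aldh1a1 and -0.29 to 0.49 for Jam2. Of the other values for single genes, 484 were counted as unchanged under the remaining alternatives, and 465 when a pool was left out. These counts do not mean that every sign was kept. With 2 of the 3 class genes required, the class differences in shares of Aldh1a1, Gpr183, Mt1 and Ehd3 changed sign. With 10 CPM of each class gene those of Alcam and Mt1 did, and after thinning that of Gpr183 did. The number of cells limits shares: with 4 cells a count of 0 allows a share of up to 75%.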
